A study of Homo sapiens with 10 samples.

Results

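Classical estrogen-induced targets are genes that rise in breast cancer cells when estrogen activates its nuclear receptor. A set of 34 of them, chosen by symbol, was followed here in 2 non-small cell lung cancer cell lines. Of the 34 genes, 32 had a probe set that names them alone, and each was represented by the brightest such probe set by mean log2 intensity over the 10 arrays, with its other probe sets kept as a check. RBBP8 and SGK3 had no such probe set and were not analysed here. The members belong to 19775 genes with a probe set of their own on the array, of which 12979 were bright enough to test. Among the members, 27 were tested and 5 (AGR3, CXCL12, PGR, GREB1 and PDZK1) lay below the filter on low values, a mean equivalent to an intensity of 19.7.

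The lines were A549, an adenocarcinoma line, and HTB-182, a squamous carcinoma line also called H520. Cells of each line were kept for 4 h with charcoal-stripped serum, which is depleted of steroids, and then exposed for 3 h in the same kind of medium. The exposures were 1 µM of the conjugate of estradiol with bovine serum albumin (estradiol-BSA) plus 10 µM tamoxifen, 1 µM estradiol plus 10 µM tamoxifen, 1 µM estradiol-BSA, 1 µM estradiol, and a vehicle of 0.1% ethanol. The series asked which early responses to estrogen start at receptors of the plasma membrane. The conjugate served for signals from that compartment and tamoxifen as an inhibitor. Each line and treatment was 1 array with no replicate culture stated, so the p-values reflect only how far these 10 arrays scatter, in part perhaps for technical reasons. For estradiol plus tamoxifen the array titles mention tamoxifen only, and the source names, which list both compounds, were followed. The source names of the A549 arrays also carry the number of the other line, while their cell line entries read A549. The arrays used here include none with albumin alone and none with tamoxifen alone.

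In the classical pathway, estradiol enters the cell, binds estrogen receptor alpha, and the receptor dimer then binds estrogen response elements in DNA or is tethered through other factors. TFF1, GREB1, PGR and CTSD are textbook readouts of this pathway in breast cancer cells, and several members are used clinically or experimentally as marks of an estrogen-driven tumour. Tamoxifen competes with estradiol for the receptor and in breast cells mostly acts as an antagonist. Airway epithelium and lung adenocarcinoma express some members, such as AGR2 and the trefoil factors, as part of their secretory program, so the presence of a member alone does not report receptor activity.

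The genes encoding the estrogen receptors themselves were dim. Mean intensities of ESR1 were 23.0 ± 3.18 in A549 and 20.3 ± 3.69 in HTB-182 (SD over 5 arrays here and below). ESR2 averaged 28.2 ± 9.40 in A549 and 27.8 ± 1.49 in HTB-182, and GPER1 averaged 24.7 ± 3.96 in A549 and 23.4 ± 5.07 in HTB-182, all close to the filter. Of 8 squamous markers 3 were tested, 1 lower and 1 higher in A549. SOX2 was far lower in A549 (135 ± 59.6 in A549 against 4152 ± 229 in HTB-182), while S100A2 was higher there (log2 difference 0.39). KRT5 (26.1 in A549, 22.1 in HTB-182) and KRT14 (7.68 in A549, 8.43 in HTB-182) were near or under the filter in both lines. Of 7 adenocarcinoma and alveolar markers, 6 were tested and 4 were higher in A549, among them KRT7 (3411 ± 581 in A549 against 18.1 ± 4.37 in HTB-182), and NKX2-1 was under the filter in both lines. Of 5 fibroblast markers 3 were tested and 2 were higher in A549 (COL1A1, with 382 ± 78.4 in A549 against 20.6 ± 1.40 in HTB-182, and THY1), and of 6 blood and endothelial markers 2 were tested and none was called. Of 6 luminal breast markers 5 were tested, 3 higher and 1 lower in A549. Of all tested genes, 33.6% were higher and 32% lower in A549. The part of these marker differences in the members' line difference was not tested. Median intensities were 17.5 to 21.5 per array. Compared with the average of its line's remaining arrays, the A549 vehicle array had 14 genes 2-fold or more higher and 249 lower, while this total was 23 to 35 on each other A549 array and 0 to 3 on the HTB-182 arrays. Every difference from vehicle in A549 rests on that array.

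RefSeq promoter windows (build GRCh38.p14), reaching from 250 bases before to 50 bases after a gene's start, were searched because the classical pathway acts through a known DNA element. The full palindromic element, GGTCA and TGACC with any 3 bases between them, lay in 20 of 35116 windows (0.057%) and in 0 of the 44 windows of the 26 members that have one. Its 5-base core, GGTCA or TGACC on the other strand, lay in 16 of the 44 member windows (36.4%), against 37.4% of all windows, and each full element also counts as a core match. A match is a description of the letters in the window, and elements of many targets lie farther away. Windows are printed for 3 members: CTSD, whose promoter is a textbook estrogen-responsive one and held 3 core matches, CA12, with 1, and ELOVL2, with 0. TFF1 and CCN5 are not among the members that have a window. Capitals mark the core and sequences run 5′ to 3′ on the gene's strand.
CTSD, chr11:1763878-1764177, minus strand: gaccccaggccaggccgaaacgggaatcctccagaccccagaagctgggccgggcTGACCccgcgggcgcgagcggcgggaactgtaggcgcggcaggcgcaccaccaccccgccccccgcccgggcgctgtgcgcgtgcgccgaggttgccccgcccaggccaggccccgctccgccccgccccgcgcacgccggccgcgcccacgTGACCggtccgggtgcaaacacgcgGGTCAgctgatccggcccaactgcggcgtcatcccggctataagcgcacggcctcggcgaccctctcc
CA12, chr15:63381797-63382096, minus strand: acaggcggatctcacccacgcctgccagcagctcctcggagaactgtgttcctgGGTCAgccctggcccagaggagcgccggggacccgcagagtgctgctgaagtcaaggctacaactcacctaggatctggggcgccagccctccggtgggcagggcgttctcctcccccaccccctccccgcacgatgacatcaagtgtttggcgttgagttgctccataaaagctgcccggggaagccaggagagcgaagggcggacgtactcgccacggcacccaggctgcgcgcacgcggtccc
ELOVL2, chr6:11044256-11044555, minus strand: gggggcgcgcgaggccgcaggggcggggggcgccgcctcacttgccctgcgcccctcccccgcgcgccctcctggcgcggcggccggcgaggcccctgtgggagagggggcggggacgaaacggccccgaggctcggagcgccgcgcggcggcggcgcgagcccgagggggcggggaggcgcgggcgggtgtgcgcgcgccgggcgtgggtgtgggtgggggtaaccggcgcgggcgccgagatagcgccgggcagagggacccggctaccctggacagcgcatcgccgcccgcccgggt
The CTSD matches began at positions -195, -43 and -18 from the start and the CA12 match at position -196.

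The lines differed in 25 of the 27 tested members. AGR2, CA12 and PRSS23 were far higher in A549, MYB was far higher in HTB-182, and TFF1, the best known target, was above the filter in A549 and at or under it in HTB-182. In the additive limma fit of line and treatment over all 10 arrays, these 25 passed an adjusted p of 0.05 (Benjamini-Hochberg over all tested genes), 15 higher in A549 and 10 lower. The background was high: 65.7% of all tested genes differed, with 33.6% of all tested genes higher in A549 and 32% lower. The 25 include 6 members that passed the filter only through the line where they are high (TFF1, AGR2, CCN5, ELOVL2 and HSPB8 in A549, MYB in HTB-182), and for these the test of a difference is no independent evidence. Of the 21 members above the filter in both lines, 19 differed, as did 63.4% of the genes above it in both lines. The same 25 members had ranges over the 5 arrays of each line that did not overlap, as had 58.5% of all tested genes. The members' median absolute log2 difference was 1.47, the value of GATA3, beside 0.446 over all tested genes. It stayed 1.47 with those 6 members at the bounds given below, but it could not have moved. Each of the 6 stays on the same side of that value at its bound, and the median still includes them. At 1.5-fold or more in every one of the 5 treatment pairs, 13 members were higher in A549 (15.3% of all tested genes) and 6 were lower (13.3%). With the median of a gene's probe sets in place of the brightest, the calls of ADCY9, KDM4B, MYBL1 and SLC39A6 were lost. Fold changes are on the log2(intensity + 16) scale, which understates those of dim genes. For a member that averaged under the filter in one line, the fold is given as a lower bound, with each array of that line set to the filter where it lies below it. In bulk RNA fewer cells of a kind and less RNA per cell cannot be told apart.

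**Figure D1:**
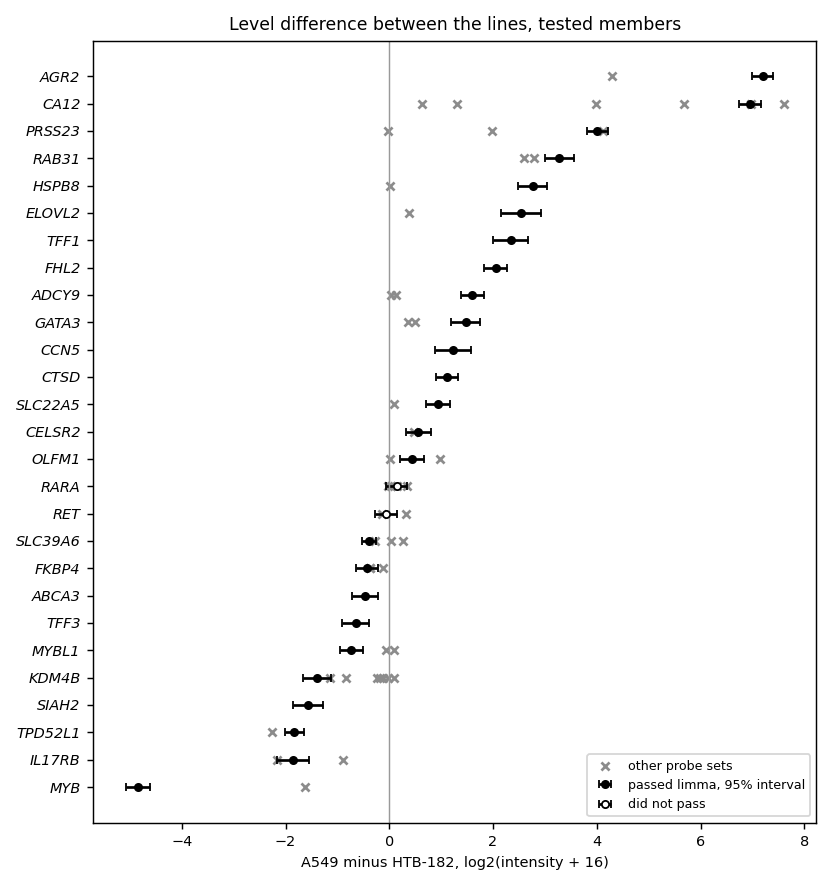
Difference between the lines for each of the 27 tested members, A549 minus HTB-182 on the log2(intensity + 16) scale, with members down the page. Points with bars are the estimate and its 95% interval from limma for the brightest probe set, filled where the test was passed, and crosses are the members' other probe sets. AGR2 at 7.20 and CA12 at 6.96 lie at one end and MYB at -4.84 at the other, and only RARA and RET have intervals that span 0.

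Among the secreted proteins, AGR2 encodes an endoplasmic reticulum disulfide isomerase that folds mucins. AGR2 had intensities of 4358 with estradiol-BSA plus tamoxifen, 4153 with estradiol plus tamoxifen, 4062 with estradiol-BSA, 5219 with estradiol and 3954 with vehicle in A549. In HTB-182 the 5 AGR2 values ran from 10.4 to 18.5. All HTB-182 values were under the filter, so AGR2 was at least 122-fold higher in A549. The fitted log2 difference was 7.20, which other pseudocounts and settings moved between 5.74 and 8.22, and the second, dimmer AGR2 probe set gave 4.29. AGR3, the neighbouring paralogue on chromosome 7 with no gene between them, stayed under the filter in both lines, at 6.48 to 13.4 in A549 and 3.48 to 6.04 in HTB-182. PRSS23, a secreted serine protease, averaged 2324 ± 266 in A549 and 128 ± 10.3 in HTB-182 (log2 4.01). Of its other 3 probe sets, 2 gave differences of 4.12 and 1.98, and the third, under the filter in both lines, gave -0.02.

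The trefoil factors are small secreted peptides that protect mucosal surfaces, and they went in opposite directions. TFF1 had intensities of 143, 108, 160, 157 and 92.6 in A549, in the order estradiol-BSA plus tamoxifen, estradiol plus tamoxifen, estradiol-BSA, estradiol and vehicle. In HTB-182 the TFF1 values in that order were 13.7, 9.78, 10.1, 11.4 and 19.7. The lowest A549 value was well above the highest in HTB-182, which was itself at the filter, so TFF1 was at least 4.08-fold higher in A549. TFF1 passed the filter only through A549, so its limma test (adjusted p = 1.08e-07) is no independent evidence. The fitted log2 difference of 2.34 moved between 1.34 and 3.27 with other pseudocounts and settings. TFF3, separated from TFF1 on chromosome 21 by TFF2 alone, was the other way round, at 32.9 to 47.2 in A549 and 56.1 to 90.7 in HTB-182 (log2 -0.65 ± 0.12). Each trefoil gene had 1 probe set, so there is no second reading of either.

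Of the remaining secreted members, 3 were higher in A549 and CXCL12 was not tested. CCN5, a matricellular protein of the connective tissue growth factor family, averaged 68.3 ± 27.2 in A549 and 18.7 ± 2.91 in HTB-182 (at least 2.23-fold, fitted log2 1.23), with vehicle the highest A549 array. CTSD, the lysosomal aspartic protease cathepsin D, was at 75.2 to 89.1 in A549 and 23.2 to 35.7 in HTB-182 (log2 1.12). OLFM1, a secreted glycoprotein with an olfactomedin domain, had the smallest difference of the 3, with 52.4 to 70.7 in A549 and 33.6 to 45.5 in HTB-182 (log2 0.43). The 2 other OLFM1 probe sets gave 0.02 and 0.98. CXCL12, the chemokine ligand of CXCR4, lay under the filter in all but the A549 vehicle array (8.62 to 20.2 in A549 and 9.19 to 14.9 in HTB-182), and the lines overlapped.

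**Figure D2:**
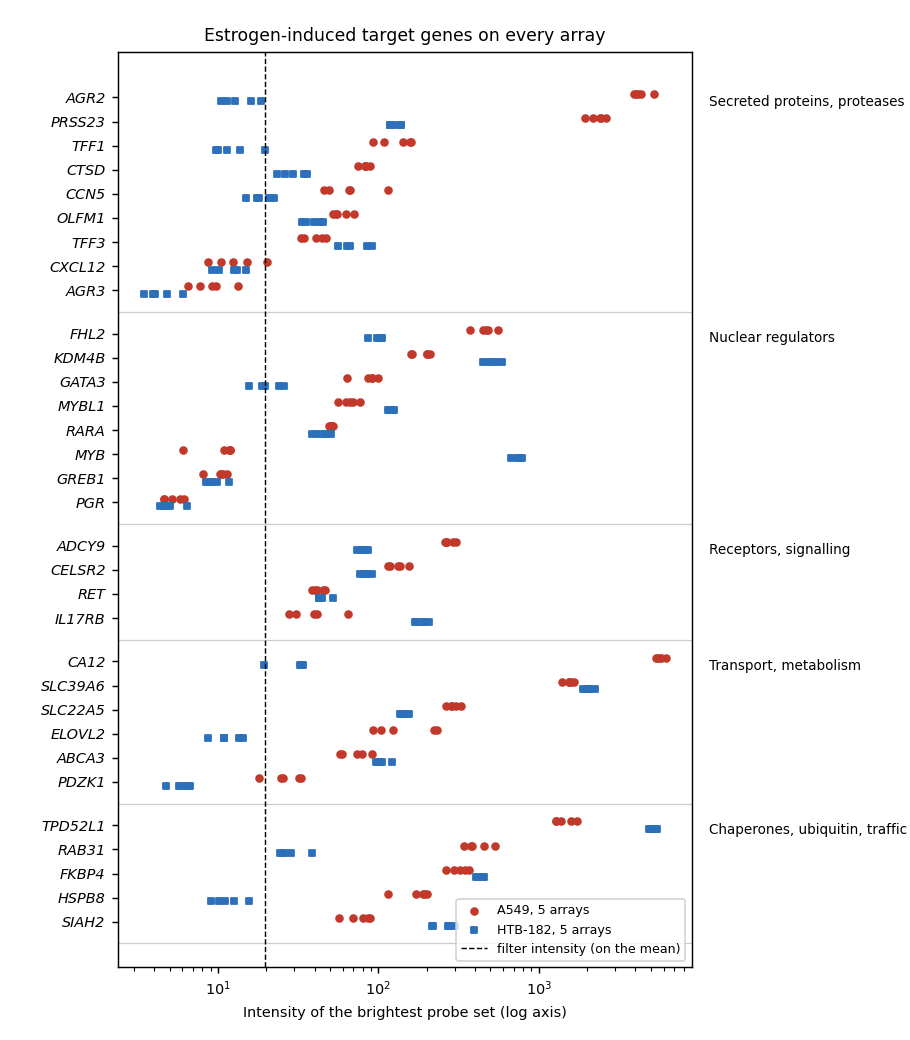
Intensity of each of the 32 members with a probe set on all 10 arrays, on a log axis, grouped by the members' roles, with A549 arrays as circles, HTB-182 arrays as squares and the filter level dashed. The A549 points of AGR2, CA12 and PRSS23 stand far above those of HTB-182, MYB shows the reverse, and PGR, GREB1 and CXCL12 sit low in both lines.

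Among the nuclear regulators the split was mixed. MYB, a proto-oncogene transcription factor of progenitor cells, was at 6.09 to 12.0 in A549, under the filter, and at 669 to 782 in HTB-182. MYB was thus at least 21.2-fold lower in A549 (fitted log2 -4.84), and its second probe set gave -1.62. MYBL1, a paralogue of MYB, went the same way but less far, at 56.2 to 76.4 in A549 and 116 to 126 in HTB-182 (log2 -0.73), with a difference of -0.06 in its second probe set and 0.09 in another that was under the filter in both lines. KDM4B, a histone lysine demethylase that acts with estrogen receptor alpha in breast cells, averaged 187 in A549 and 517 in HTB-182 (log2 -1.39). Its 7 other probe sets ran from -1.14 to 0.09. The next brightest KDM4B probe sets gave -1.14 and -0.84, and the dimmer ones lay close to 0.

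FHL2 and GATA3 were higher in A549. FHL2, a LIM-domain coregulator of nuclear receptors, was at 371 to 554 in A549 and 85.8 to 105 in HTB-182 (log2 2.05 ± 0.10). GATA3, the transcription factor that defines luminal breast epithelium, was at 63.4 to 99.1 in A549 and 15.7 to 25.8 in HTB-182 (log2 1.47), and its 2 dimmer probe sets gave 0.36 and 0.49. RARA, the retinoic acid receptor alpha, overlapped between the lines at 49.3 to 52.1 in A549 and 38.4 to 50.8 in HTB-182 (log2 0.14, 95% interval -0.06 to 0.34, adjusted p = 0.192 by limma). The progesterone receptor gene PGR was at 4.60 to 6.16 in A549 and 4.34 to 6.45 in HTB-182, and GREB1, a cofactor of estrogen receptor alpha, at 8.08 to 11.4 in A549 and 8.43 to 11.7 in HTB-182. For both genes the lines overlapped far below the filter, with no array of any treatment above it.

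Of the receptors and signalling proteins, IL17RB, the receptor for interleukin 25, was lower in A549, at 27.9 to 64.3 there and 170 to 206 in HTB-182 (log2 -1.86 ± 0.14). ADCY9, an adenylate cyclase, was higher in A549, at 261 to 304 there and 74.0 to 85.6 in HTB-182 (log2 1.60). The other ADCY9 probe sets, near or under the filter, gave 0.14 and 0.04. CELSR2, a planar polarity cadherin, was at 116 to 156 in A549 and 77.1 to 90.7 in HTB-182 (log2 0.56). RET, the receptor tyrosine kinase for glial-derived neurotrophic ligands, overlapped between the lines, at 38.5 to 46.5 in A549 and 42.6 to 52.2 in HTB-182. Its log2 difference of -0.06 had an interval of -0.27 to 0.14 (adjusted p = 0.584 by limma).

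Of the transport and metabolic members, CA12, a cell-surface carbonic anhydrase, was at 5360 to 6174 in A549 and 19.4 to 33.9 in HTB-182. The difference was 124-fold (log2 6.96 ± 0.09), and its 6 other probe sets all gave a positive difference, from 0.64 to 7.60. ELOVL2, which elongates polyunsaturated fatty acids, was at 92.1 to 232 in A549 and 8.70 to 14.4 in HTB-182 (at least 4.49-fold higher in A549, fitted log2 2.54), while its second probe set gave 0.38. SLC22A5, the carnitine transporter, was at 266 to 327 in A549 and 136 to 154 in HTB-182 (log2 0.94). Its second probe set, also over the filter in both lines, gave 0.09. SLC39A6, a zinc importer, was slightly lower in A549, at 1397 to 1667 there and 1880 to 2243 in HTB-182 (log2 -0.39). The 3 other SLC39A6 probe sets ran from -0.27 to 0.26. ABCA3, the lipid transporter of alveolar type II cells, was also lower in A549, at 57.5 to 91.5 there and 96.6 to 121 in HTB-182 (log2 -0.47). PDZK1, a scaffold for membrane transporters, averaged above the filter in A549 and under it in HTB-182, and its arrays are given with the treatments.

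Of the chaperones, the ubiquitin ligase and the traffic proteins, RAB31, a small GTPase of vesicle transport, averaged 418 in A549 and 28.6 in HTB-182 (log2 3.27 ± 0.13), with 2.78 and 2.60 in its other probe sets. HSPB8, a small heat shock protein, was at 115 to 202 in A549 and 9.10 to 15.5 in HTB-182 (at least 5.24-fold higher in A549, fitted log2 2.76). Its second probe set, dimmer on average but the only one over the filter in both lines, gave 0.02. TPD52L1, a coiled-coil protein of the tumour protein D52 family, was lower in A549, averaging 1448 there and 5162 in HTB-182 (log2 -1.83), with -2.26 in the second probe set. SIAH2, a ubiquitin ligase, was lower as well, at 57.0 to 88.6 in A549 and 218 to 298 in HTB-182 (log2 -1.56). FKBP4, a cochaperone of steroid receptors, was at 266 to 365 in A549 and 407 to 457 in HTB-182 (log2 -0.43).

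Against this contrast between lines, the responses to estrogen over 3 h were small. No tested gene passed the additive limma fit for any treatment against vehicle, for estradiol-BSA against estradiol, or for tamoxifen added to either estrogen (0 of 12979 each, 0%), so 0 of 27 members did. At an unadjusted p under 0.05 the counts over all tested genes were 962 for estradiol-BSA plus tamoxifen, 594 for estradiol plus tamoxifen, 840 for estradiol-BSA and 581 for estradiol, each against vehicle, with 1, 0, 0 and 2 members in that order. The members' median log2 differences from vehicle were 0.02, -0.02, -0.03 and 0.03 in that order, beside -0.06, -0.07, -0.07 and -0.06 over all tested genes. These comparisons share the vehicle arrays. The spread in this fit is the disagreement between the lines, so a response of 1 line alone adds to it. The median 95% interval of a member reached 1.29-fold to each side of its estimate, and ELOVL2, at 1.61-fold with estradiol, did not pass, so a change of that size could go uncalled. Without the HTB-182 vehicle array, vehicle is the A549 array alone, the one that stood apart, and that lone array is assumed to vary like the other groups. In that fit 2 members were called with each treatment, and 16.2% of all tested genes were with estradiol-BSA plus tamoxifen, 13.5% with estradiol plus tamoxifen, 15.9% with estradiol-BSA and 8.31% with estradiol. CCN5 was below vehicle in each, at -0.88, -0.89, -0.78 and -0.84 in that order (adjusted p of 0.0144 to 0.0276 by limma). The other members were TFF1 with estradiol-BSA plus tamoxifen (0.61, adjusted p = 0.0445), IL17RB with estradiol plus tamoxifen (-0.75, adjusted p = 0.0344), and ELOVL2 with estradiol-BSA (0.90, adjusted p = 0.0361) and with estradiol (1.02, adjusted p = 0.0336). Without the A549 vehicle array instead, 0 members were called. CCN5 was then at -0.003, -0.01, 0.10 and 0.04 in the same order of treatments, and ELOVL2 at 0.24 with estradiol-BSA and 0.35 with estradiol. TFF1 turned to -0.32 with estradiol-BSA plus tamoxifen, and IL17RB was at -0.15 with estradiol plus tamoxifen. The calls made against the A549 vehicle array alone were thus not made against the HTB-182 one alone.

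No member was 1.5-fold or more from vehicle in the same direction in both lines for any treatment. Of all tested genes, 0.0077% were so far above and 0.0539% below vehicle with estradiol-BSA plus tamoxifen, 0% and 0.0385% with estradiol plus tamoxifen, 0.0077% and 0.0308% with estradiol-BSA, and 0.0154% and 0% with estradiol. With estradiol, ELOVL2 had the largest estimate, 0.69 ± 0.27 on the log2 scale (adjusted p = 0.913 by limma), made of 1.20 in A549 and 0.18 in HTB-182. By size CCN5 came next, at -0.40 ± 0.25 (-0.67 in A549 and -0.14 in HTB-182), and then FHL2 at 0.36 ± 0.16 (0.56 in A549 and 0.17 in HTB-182). FHL2 was above vehicle on every treated array of both lines, as was SLC39A6. The share of all tested genes so placed in both lines was not counted, and singly it was 17.2% in A549 and 27.4% in HTB-182. FHL2 has 1 probe set. Of the 4 SLC39A6 probe sets, 2 were above vehicle on all 4 treated arrays in A549 and 1 in HTB-182. FHL2 had intensities of 467, 452, 485, 554 and 371 in A549, in the order estradiol-BSA plus tamoxifen, estradiol plus tamoxifen, estradiol-BSA, estradiol and vehicle, and 104, 105, 103, 98.5 and 85.8 in HTB-182 in that order. The vehicle value was the lowest of the 5 in each line, and 1.5-fold was not reached.

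Within A549, both estrogen forms without tamoxifen were at least 1.5-fold above vehicle for 2 members, ELOVL2 and TFF1, as they were for 3.01% of all tested genes. ELOVL2 had intensities of 104, 124, 222, 232 and 92.1 in A549, in the order estradiol-BSA plus tamoxifen, estradiol plus tamoxifen, estradiol-BSA, estradiol and vehicle, and 13.6, 8.70, 10.8, 14.4 and 10.9 in HTB-182 in that order. In A549 the estrogen arrays without tamoxifen were the high ones. The 2 tamoxifen arrays lay between them and vehicle. On the log2 scale they were 0.15 above vehicle with estradiol-BSA plus tamoxifen and 0.37 with estradiol plus tamoxifen. All HTB-182 values lay under the filter. The second ELOVL2 probe set did not repeat this pattern. It had 14.5, 15.2, 22.4, 20.5 and 26.3 in A549 in the same order, highest with vehicle.

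TFF1 in A549, whose values are given above, was 0.70 above vehicle with estradiol-BSA and 0.67 with estradiol on the log2 scale, and 0.55 and 0.19 above it with tamoxifen added to each. In HTB-182 TFF1 was -0.45 from vehicle with estradiol-BSA and -0.38 with estradiol. Those arrays, at 10.1 and 11.4, were under the filter, and only vehicle, at 19.7, was at it. TFF1 was the only member above vehicle on all 4 treated arrays of A549 and below it on all 4 of HTB-182, as were 2.73% of all tested genes. PDZK1, which was not tested, had 24.9, 25.4, 33.1, 31.8 and 18.0 in A549, in the order estradiol-BSA plus tamoxifen, estradiol plus tamoxifen, estradiol-BSA, estradiol and vehicle, and 4.73 to 6.74 in HTB-182. The A549 arrays without tamoxifen were again the high ones, and the tamoxifen arrays lay between them and vehicle, all within 0.53 of vehicle on the log2 scale. Being at least 1.5-fold above vehicle with both forms and lower with tamoxifen in both pairs, a pattern picked after the values were seen, was shown by ELOVL2 and TFF1 and by 0.655% of all tested genes in A549, and by 0 members and 0.0539% in HTB-182.

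**Figure D3:**
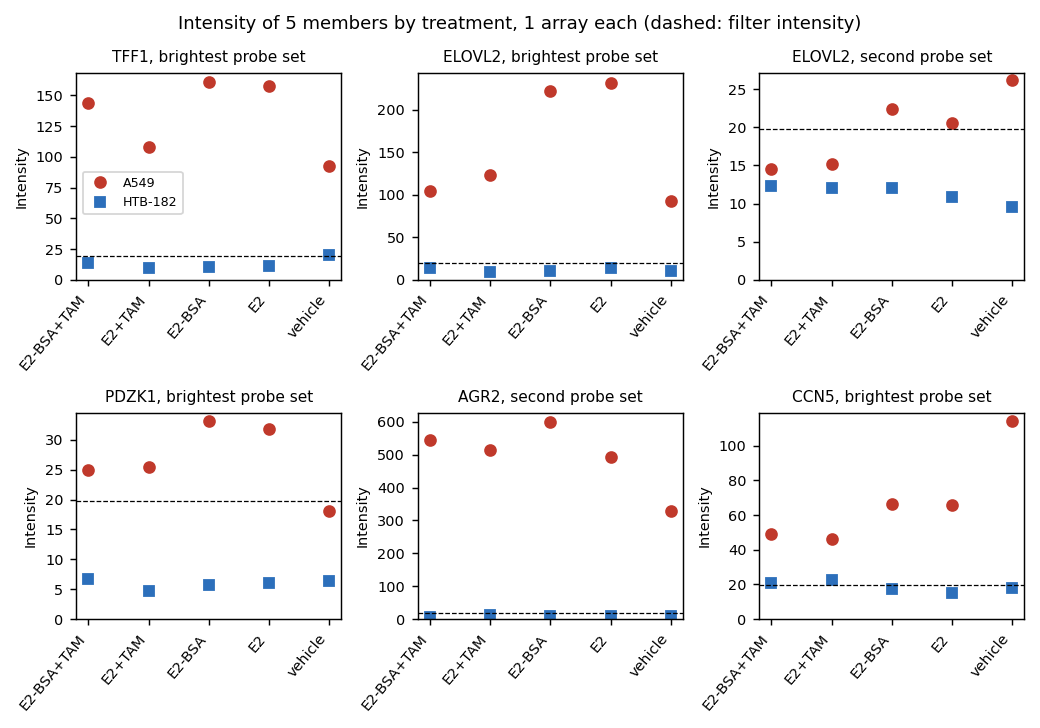
Intensity of 5 members on each array, by treatment, for A549 (circles) and HTB-182 (squares), with ELOVL2 shown for both of its probe sets, AGR2 for its second and the filter level dashed. E2 is estradiol and TAM tamoxifen. Each point is 1 array and there is no error bar, since no line and treatment has a replicate. In A549, ELOVL2 reaches 232 with estradiol and 222 with estradiol-BSA, against 92.1 with vehicle, and CCN5 is highest with vehicle at 114.

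Taken singly in A549, members 1.5-fold or more above vehicle were 0 with estradiol-BSA plus tamoxifen (6.05% of all tested genes), 0 with estradiol plus tamoxifen (4.77%), 2 with estradiol-BSA (5.82%) and 3 with estradiol (4.65%), where RAB31 joined ELOVL2 and TFF1. Members as far below vehicle were 1 with estradiol-BSA plus tamoxifen (12.3%), 3 with estradiol plus tamoxifen (7.87%), 2 with estradiol-BSA (12.1%) and 1 with estradiol (4.04%). CCN5 was in each of these counts, IL17RB in those of estradiol plus tamoxifen and estradiol-BSA, and HSPB8 in that of estradiol plus tamoxifen. In HTB-182 no member reached 1.5-fold with any treatment. There the shares of all tested genes were 0.262% above and 0.524% below vehicle with estradiol-BSA plus tamoxifen, 0.208% and 0.2% with estradiol plus tamoxifen, 0.239% and 0.185% with estradiol-BSA, 0.162% and 0.262% with estradiol, and 0.077% and 0.0308% with both forms.

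CCN5 was the member that was at least 1.5-fold below vehicle with both forms in A549, as were 2.01% of all tested genes. CCN5 had 49.3, 46.1, 66.4, 65.8 and 114 in A549, in the order estradiol-BSA plus tamoxifen, estradiol plus tamoxifen, estradiol-BSA, estradiol and vehicle, and 20.8, 22.4, 17.5, 15.0 and 18.1 in HTB-182. The A549 vehicle array was alone at the top and the 2 tamoxifen arrays were the lowest, whereas in HTB-182 the tamoxifen arrays were the highest. With 1 probe set, CCN5 has no second reading.

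Counting direction alone, 8 members were above vehicle on all 4 treated A549 arrays (AGR2, CA12, ELOVL2, FHL2, PRSS23, RAB31, SLC39A6 and TFF1), as were 17.2% of all tested genes, and 10 were below it, as were 49.5%. No member was below vehicle on all 4 in A549 and above it on all 4 in HTB-182, as 14.9% of all tested genes were. Of the 8, AGR2 kept both forms above vehicle in 2 of its 2 probe sets over the filter, PRSS23 in 3 of 3, CA12 in 5 of 7, SLC39A6 in 2 of 4 and RAB31 in 1 of 3. The dimmer AGR2 probe set had 544, 514, 599, 492 and 329 in A549, in the order estradiol-BSA plus tamoxifen, estradiol plus tamoxifen, estradiol-BSA, estradiol and vehicle, so its vehicle value was the lowest too. In HTB-182, 5 members were above vehicle on all 4 treated arrays (FHL2, HSPB8, MYB, RARA and SLC39A6), as were 27.4% of all tested genes, and 4 were below it (CELSR2, MYBL1, SIAH2 and TFF1), as were 15%. The part of the A549 vehicle array in these counts was not tested, since the line has no other vehicle array.

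**Figure D4:**
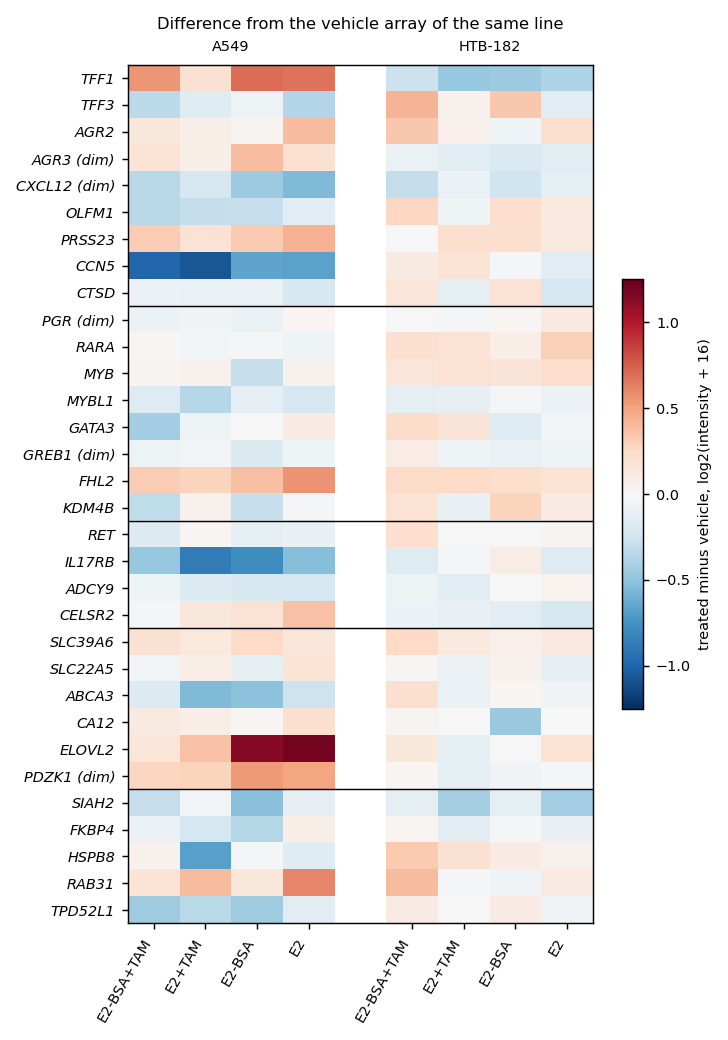
Colour map of the log2 difference from vehicle for the 32 members with a probe set (rows, by role) after each treatment (columns), in A549 and in HTB-182, on the log2(intensity + 16) scale, 1 treated array against 1 vehicle array. E2 is estradiol, TAM tamoxifen, and dim members were not tested. ELOVL2 in A549 is at 1.20 with estradiol and CCN5 in A549 at -1.07 with estradiol plus tamoxifen, while the HTB-182 values of tested members run from -0.47 to 0.43.

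Estradiol-BSA and estradiol were compared at the same dose and time without tamoxifen, in 1 pair of arrays per line. No member differed by the additive limma fit, with a smallest adjusted p of 0.993, and at an unadjusted p under 0.05 there were 454 genes and 0 members. No member was 1.5-fold apart the same way in both lines, as 0.0077% of all tested genes were upward and 0.0154% downward. The members' median difference was -0.05 on the log2 scale, beside -0.02 over all tested genes. TFF3 had the highest estimate, 0.39 with a 95% interval of -0.01 to 0.80 (0.30 in A549 and 0.48 in HTB-182). CA12 was at -0.32 (-0.65 to 0.01) and AGR2 at -0.32 (-0.64 to 0.002), both negative in each line. For TFF1 the difference was -0.02 (-0.55 to 0.50) and for ELOVL2 -0.12 (-0.71 to 0.48). A member's interval reached a median of 1.29-fold to each side, so a common difference of that size may have been missed and equal action of both forms is not shown.

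Tamoxifen added to either estrogen gave 0 member calls by limma, with 151 genes and 1 member at an unadjusted p under 0.05. That member was ELOVL2, at -0.49 ± 0.19 (95% interval -0.92 to -0.07, adjusted p = 1). Its pairs were -0.99 on estradiol-BSA and -0.83 on estradiol in A549, and 0.14 and -0.30 in HTB-182. TFF1 averaged -0.13 (-0.51 to 0.24), with -0.15 and -0.48 in A549 and 0.19 and -0.09 in HTB-182, again on estradiol-BSA and then on estradiol. The other tested members had estimates within the range set by ELOVL2 and by CA12 at 0.11.

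The lines were then compared in their responses. With a line by tamoxifen term, 0 genes and 0 members were called by limma (260 genes at an unadjusted p under 0.05). This term sets the tamoxifen arrays against all arrays without tamoxifen, vehicle included, so it also takes in the A549 vehicle array. By size, CCN5 had the largest fitted estimate of A549 minus HTB-182, -0.78 ± 0.22 (adjusted p = 0.971), and GATA3 was at -0.55 ± 0.21. In the pairs of each estrogen form with and without tamoxifen, which leave vehicle out, CCN5 ran from -0.71 to -0.47. ELOVL2 ran from -1.13 to -0.53 in these pairs, though its fitted estimate was -0.47. At 1.5-fold or more in each pair no member was counted, beside 0.0231% of all tested genes higher and 0.116% lower. With a further line by estrogen term, which sets both forms without tamoxifen against vehicle, 369 genes were called (2.84%), 289 higher (2.23%) and 80 lower (0.616%). TFF1 and ELOVL2 were the 2 members called, both higher. Both passed the filter only through A549, and their HTB-182 values, 9.78 to 19.7 for TFF1 and 8.70 to 14.4 for ELOVL2, lie at or under it, so changes under that level in HTB-182 could not be read. Of the 21 members above the filter in both lines 0 were called, beside 2.56% of the genes above it in both lines. TFF1 and ELOVL2 were also the 2 members at 1.5-fold or more in each pair, as were 3.35% of all tested genes, and no member was so far lower, as were 3.39%. For TFF1 the difference in response was 1.11 ± 0.27 (95% interval 0.56 to 1.66, adjusted p = 0.0122), with 1.06 on estradiol and 1.16 on estradiol-BSA. For ELOVL2 it was 1.08 ± 0.28 (0.51 to 1.65, adjusted p = 0.0199), while its second probe set gave -0.28 and a fit on the median of a gene's probe sets did not call it (0.40, adjusted p = 0.418). The TFF1 call was lost without the filter on low values (adjusted p = 0.0808). The ELOVL2 call was lost without either estradiol-BSA array (adjusted p up to 0.0658). Leaving out 1 array leaves its treatment with a single array, and the number of members called changed with the array left out. With quantile normalization 1 member was called, beside 1.68% of all tested genes. A stricter filter, at the 70th percentile, left TFF1 and ELOVL2 untested and called 0 members.

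The line by estrogen term fits each vehicle array exactly, so it takes the A549 and HTB-182 vehicle arrays at face value, and both pairs of a gene share them. Over all tested genes its median was -0.15. For TFF1, part of the difference lies in the HTB-182 vehicle value of 19.7, the highest of that line and at the filter. SOX2, a squamous marker, was also called in this comparison (2.04, adjusted p = 5.89e-08), with 36.1 on the A549 vehicle array and 131 to 192 on the other A549 arrays. The part of the vehicle arrays in the TFF1 and ELOVL2 results was not tested, because no fit of this term can be made without either of them.

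Other genes of the estrogen pathway were read in the same fits. Of 24 further genes induced by estrogen in breast cells, 18 were tested, and 9 were higher and 7 lower in A549 than in HTB-182. Of all tested genes 33.6% were higher and 32% lower. The differences of largest size were those of IGFBP4, an insulin-like growth factor binding protein (log2 4.78), IRS1, the insulin receptor substrate (3.94), STC2, a stanniocalcin (-2.68), and NRIP1, a corepressor of estrogen receptor alpha (2.49). None of the 18 passed in any treatment comparison of the additive fit, and TGFA, a ligand of the epidermal growth factor receptor, was the 1 gene called in the line by estrogen term (1.64, adjusted p = 0.000311). TGFA had 111, 99.4, 122, 101 and 27.4 in A549, in the order estradiol-BSA plus tamoxifen, estradiol plus tamoxifen, estradiol-BSA, estradiol and vehicle, and 283 to 314 in HTB-182. The A549 vehicle array was the low one, and the second TGFA probe set went the other way, with 39.7 on that array and 17.2 to 24.0 on the others. Of 14 estrogen receptors and partners, 10 were tested, and 5 were higher and 2 lower in A549, beside the same shares of all tested genes. The largest were the transcription factor TFAP2C (2.77) and the RNA helicase DDX5 (0.89). None was called after any treatment or in the response terms.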

How the data were processed

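Total RNA of 10 cultures was measured on Affymetrix expression arrays. The authors deposited a single table of intensities on a linear scale. The submitters' processing notes name MAS5 alone, and how it was scaled is not given in the sources used here. Groups were taken from the source names.

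The table held 54675 probe sets: 62 were controls, 41091 name 1 gene in the platform annotation, 1801 several and 11721 none here. Each of 19775 genes was represented by its brightest 1-gene probe set. Values were taken as log2(intensity + 16), and 12979 genes at or above the median over probe sets were tested. The tests used limma 3.58.1 in R 4.3.3 (moderated statistics with trend, Benjamini-Hochberg at 0.05). The fits were also run on simulated data with independent noise, which does not cover a vehicle array that stands apart. The additive model of line and treatment left 4 residual degrees of freedom, and the models with line by tamoxifen and then line by estrogen terms 3 and 2. The line is the block that pairs arrays of a line. Within a line, differences are sizes without a test. The number of arrays limits the precision.

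The members and the gene lists were chosen with earlier results of these data known. All 34 members were to be accounted for by role, with full values for those passing a test or at least 1.5-fold apart in every pair, and up to 4 called genes from each other list. Alternatives were other pseudocounts, filters, normalization, probe-set summaries, array weights, no block for the line, and leaving out each array.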

Additional observations from a re-analysis of the deposited data

Results flagged for a closer look

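The limma test of the difference between lines in the response to estrogen without tamoxifen passed for TFF1 (1.11, log2 of intensity + 16) and ELOVL2 (1.08). The pairs of each gene share both vehicle arrays, so they are not independent. The HTB-182 intensities of both genes were at or under 19.7, the filter level, so changes under that level could not be read. The A549 vehicle array, on which both values rest, stood apart from the other A549 arrays.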

How the results depend on the processing

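The line difference kept 25 members called without each array in turn, with 7812 to 8755 genes called in all. With the median of a gene's probe sets, the calls of MYBL1, KDM4B, ADCY9 and SLC39A6 were lost. RET ran from -0.10 to 0.0032 without 1 array, turning positive without either array of estradiol-BSA plus tamoxifen, and SLC39A6 after estradiol-BSA plus tamoxifen turned to -0.34 with the median of probe sets. Leaving out an array gave 0 to 2104 genes for estradiol-BSA plus tamoxifen, 0 to 1754 for estradiol plus tamoxifen, 0 to 2058 for estradiol-BSA and 0 to 1078 for estradiol, each against vehicle. The high counts all came without the HTB-182 vehicle array, when vehicle is the A549 array alone. Estradiol-BSA against estradiol gave 0 to 1 gene without an array, 1 with array weights and 1 without both vehicle arrays, an alternative chosen after seeing the data. The tamoxifen comparison stayed at 0. The line by tamoxifen term gave 0 to 4 genes without an array and 105 with array weights. The line by estrogen term gave 279 to 2290 without an array (2251 and 2290 without the HTB-182 or A549 estradiol array), 218 with quantile normalization and 127 with the median of probe sets, and could not be fitted without a vehicle array. The number of members it called changed with the array left out, and was 1 with either of those settings (1.68% and 1.12% of all tested genes). With the filter at the 70th percentile, which left TFF1 and ELOVL2 untested, it called 0 members. Its TFF1 call was lost without the filter (adjusted p = 0.0808) and stood between 0.00483 and 0.0427 otherwise. Its ELOVL2 call was also lost with a pseudocount of 1 (0.122), no filter (0.109), quantile normalization (0.0761) and without either estradiol-BSA array (0.0658 and 0.062). The labels give no replicate numbers. Without the line as the block that pairs arrays each treatment comparison gave 0 genes. That fit puts the line difference into the spread and could hardly call any gene, so it adds no support.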

Other observations

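CCN5 and IL17RB, which are induced by estrogen in breast cells, were among the 10 members below vehicle on all 4 treated A549 arrays, as were 49.5% of all tested genes, and are named because their values there were at least 1.5-fold lower with estradiol-BSA. IL17RB had intensities of 41.7, 27.9, 30.8, 39.5 and 64.3 there, in the order estradiol-BSA plus tamoxifen, estradiol plus tamoxifen, estradiol-BSA, estradiol and vehicle, against 170, 189, 206, 171 and 193 in HTB-182. The estimate of A549 minus HTB-182 in the estrogen effect was -0.62 for IL17RB (adjusted p = 0.317 by limma) and -0.58 for CCN5 (adjusted p = 0.252).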
